A study of Mus musculus with 14 samples.

Results

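The genes described here are the Wnt ligands and the proteins that receive, limit and transmit their signal: 49 protein-coding genes of the mouse, of 21887 on the chromosomes of build GRCm38. They were chosen by symbol (Wnt, Fzd, Lrp5 and Lrp6, Sfrp, Dkk, Rspo, Axin, Lef1 and Tcf7 genes), without a threshold on any measured value, although the families were picked as a subject with earlier results of these data known. PRDM16, a zinc-finger transcription factor, was mapped by chromatin immunoprecipitation and sequencing (ChIP-seq) in C57BL/6 mouse ventricles at embryonic stage E13.5. A peak, a region of local read excess, was assigned to the protein-coding gene whose body lay nearest to its summit. This gave 51 of the 17587 wild-type (WT) peaks to the Wnt genes.

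The WT peak list came from whole ventricles with the atria removed (2 PRDM16 libraries, each from 3 pooled hearts). A second list came from Prdm16 conditional knockout (Prdm16cKO) ventricles, which served as the control for the antibody (1 library of 3 pooled hearts). The Cre driver of the knockout, and hence the cells that lost PRDM16, is not stated in the labels. Left ventricle (LV) and right ventricle (RV) of WT hearts were each measured in 2 libraries of 10 to 12 pooled ventricles. All WT samples carry the manipulation label Mock. The other 7 of the 14 samples are inputs without antibody. Pools of whole tissue mix muscle with endocardial, epicardial and other cells, so that a peak cannot be tied to a cell type. Fewer bound cells and less binding per cell cannot be told apart, and RNA was not measured here.

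Wnt ligands are secreted lipid-modified proteins that bind Frizzled receptors on the cell surface. With the co-receptors LRP5 and LRP6, this binding protects beta-catenin from the destruction complex that AXIN holds together, and beta-catenin then acts on DNA through TCF and LEF factors. SFRP proteins bind the ligands, DKK proteins block the co-receptors, and R-spondins raise the number of receptors on the cell. In the developing heart, beta-catenin signalling is known to favour proliferation of ventricular muscle, while ligands such as WNT11 act largely without beta-catenin.

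A WT peak was assigned to 23 of the 49 Wnt genes (46.9%), beside 32.9% of all protein-coding genes, but the peaks were mostly modest. A peak of at least 5-fold enrichment over background, as the authors' peak caller gave it, belonged to 4 of 49 genes (8.16%), Fzd8, Sfrp1, Wnt11 and Dkk3, beside 2953 of 21887 genes in all (13.49%). The excess of genes with a peak was smaller among stronger peaks: with a -log10 q of at least 5, 14 of 49 Wnt genes (28.6%) had one, beside 26.1% of all genes. Counted by peak, 8 of 51 (15.7%) reached 5-fold, beside 26.1% of all WT peaks. The median fold enrichment was 3.88 at the Wnt genes (range 2.56 to 8.83) and 4.0 over all WT peaks, and the median width was 260 bp against 298 bp. No test was run on these shares, since the peak list holds no values per library. All fold enrichments given here are the authors' values.

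Genes with much surrounding sequence had a peak more often, and the Wnt genes had more of it by the median. The sequence nearest to a gene had a median of 79.0 kb at the Wnt genes and 45.7 kb over all genes. Genes were split in 3 nearly equal sets by that length. In the set with the longest sequence (at least 79.7 kb), 15 of 24 Wnt genes (62.5%) had a peak, beside 56.4% of all genes. In the middle set, 8 of 19 did (42.1%), beside 27.9%. In the shortest set, 0 of 6 did, beside 14.4%. Whether this length accounts for the higher share of Wnt genes with a peak was not tested. The shares at 5-fold were not split by it.

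**Figure D1:**
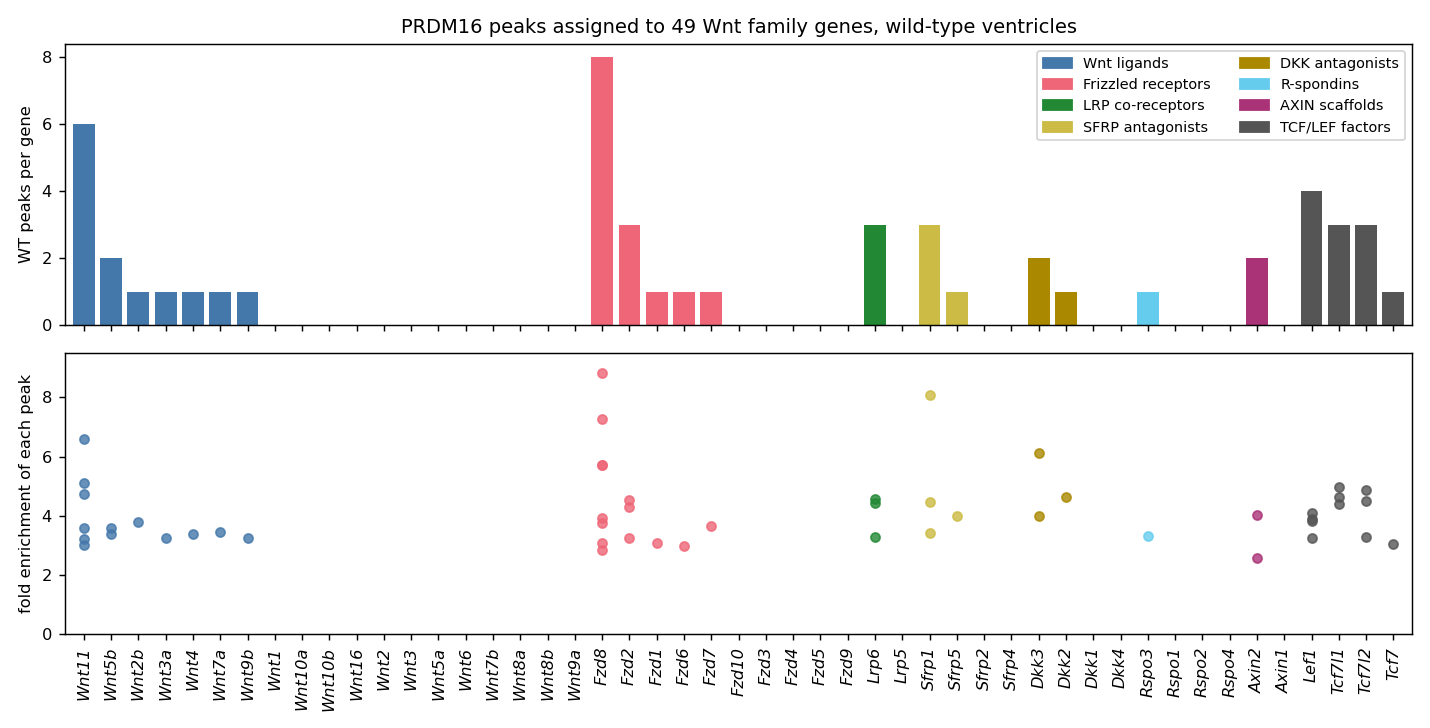
Number of WT peaks assigned to each of the 49 Wnt genes (upper panel, bars) and the fold enrichment of each peak (lower panel, points), with genes grouped and coloured by family. Fzd8 carried 8 peaks and Wnt11 6, and the 26 genes without a bar had none.

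By family, the share of members with a peak ranged widely, and differences between families were not tested. All 4 TCF/LEF genes did (11 peaks), as did 7 of 19 ligand genes (13 peaks) and 5 of 10 Frizzled genes (14 peaks). Of the antagonists, 2 of 4 SFRP genes (4 peaks) and 2 of 4 DKK genes (3 peaks) had one. Lrp6 (3 peaks) and Axin2 (2 peaks) had peaks where Lrp5 and Axin1 had none, and Rspo3 (1 peak) was the R-spondin gene with a peak, of 4. Fzd8 with 8 and Wnt11 with 6 were the Wnt genes with at least 6 peaks, a number reached by 692 of all genes. The TCF/LEF genes were also the longest family, with a median gene length of 138368 bp, against 4593.5 bp in the Frizzled genes.

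Promoter peaks are shown first by sequence, for the genes with a promoter sequence at hand, as sites where a peak lay over or just before a gene start. RefSeq promoter windows of GRCm38.p6, from 250 bases before to 50 bases after a gene start, were at hand for 32 of the 49 genes (40 windows). Fzd2, with a peak 6 bp from a gene end (fold 4.31), was among the genes without a window. A WT peak overlapped 4 of the 40 windows (10.0%), at Lef1 (2 neighbouring starts, met by the same peak), Fzd7 and Sfrp5, beside 8.31% of 21263 windows of all protein-coding genes. Counted by gene, this was 3 of 32 Wnt genes, beside 1617 of 17492 genes with a window. The 250 bases before each start follow, 5′ to 3′ on the strand of the gene, with the bases inside the WT peak in capitals.
Lef1, plus strand, chr3:131110073-131110322: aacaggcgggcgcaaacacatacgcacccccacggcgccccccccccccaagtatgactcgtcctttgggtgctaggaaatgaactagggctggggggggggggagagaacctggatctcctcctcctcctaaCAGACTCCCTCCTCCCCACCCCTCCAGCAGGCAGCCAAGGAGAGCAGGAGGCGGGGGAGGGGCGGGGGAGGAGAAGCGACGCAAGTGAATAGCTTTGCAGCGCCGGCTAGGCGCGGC
Fzd7, plus strand, chr1:59481897-59482146: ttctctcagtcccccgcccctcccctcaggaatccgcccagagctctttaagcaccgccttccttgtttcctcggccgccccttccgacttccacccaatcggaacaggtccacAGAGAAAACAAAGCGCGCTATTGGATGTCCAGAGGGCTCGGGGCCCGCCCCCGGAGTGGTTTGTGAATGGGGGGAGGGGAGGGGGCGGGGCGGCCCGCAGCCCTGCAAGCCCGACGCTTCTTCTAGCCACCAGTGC
Sfrp5, minus strand, chr19:42202253-42202502: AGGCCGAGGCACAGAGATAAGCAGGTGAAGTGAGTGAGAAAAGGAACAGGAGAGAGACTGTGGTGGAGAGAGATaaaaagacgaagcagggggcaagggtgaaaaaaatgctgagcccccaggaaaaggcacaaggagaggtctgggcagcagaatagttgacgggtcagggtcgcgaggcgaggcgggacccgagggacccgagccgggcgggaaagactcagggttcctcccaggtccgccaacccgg

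The peak covered the start itself at Lef1 (117 of the printed bases) and Fzd7 (136), and the outer end of the window at Sfrp5 (74 of the printed bases). The Wnt gene windows were rich in G and C, with a median of 68.2% and 26.5 CG pairs, against 56.3% and 13 in all windows. Letters of known motifs were searched on both strands. The GATA letters AGATAA stood at positions -236 and -180 from the start of Sfrp5, the first of them wholly inside the peak. The TCF/LEF letters CTTTGAT were in 2 of 40 Wnt gene windows (5.0%) and 3.22% of all windows, AGATAA in 5 (12.5%) and 9.65%, and the TEAD letters GGAATG in 1 (2.5%) and 13.6%. The T-box letters GGTGTGA were in 0 of 40 windows, against 3.68% of all. GATAAGAT and AAGATAAG, letters of the EVI1 family to which PRDM16 belongs, were in 0 of 40, against 0.376% and 0.663% of all. AGATAA overlaps AAGATAAG by its letters, and none of these matches is a measured binding site.

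Among the ligand genes, Wnt11 stood out by the number of its peaks. WNT11 guides cell movement and polarity and is needed for the outflow tract. Its strongest peak (fold 6.60, -log10 q 22.4) lay inside the gene at chr7:98851195-98852137 and was stronger than 88.8% of all WT peaks. A group of 4 peaks lay 16782 to 19832 bp before the gene, with 3050 bp between the outer summits. Their fold enrichments were 3.01, 3.58, 4.73 and 5.12, rising in the order of their distance, from far to near. Another peak lay 33868 bp before the gene (3.23). The next protein-coding gene, Uvrag, was 35350 bp from the peak inside Wnt11.

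The other ligand genes with a peak had 1 or 2, none above fold 3.78. These were Wnt2b (3.78, with its summit 639 bp before the gene start), Wnt5b (3.58 and 3.39, both inside the gene) and Wnt7a (3.43, inside), which patterns the limb. Wnt4 (3.39), a ligand of kidney and gonad development, had a peak 65306 bp away, although a peak assigned to Cdc42 was nearer (17047 bp). Wnt3a, a ligand that acts through beta-catenin, and Wnt9b, a ligand of kidney tubule formation, had peaks inside the gene of fold 3.24 each. Reads in the separate ventricle libraries were few there, with 1 and 2 in LV and 1 and 2 in RV at Wnt3a, and 4 and 2 against 4 and 3 at Wnt9b. The 12 ligand genes without a peak were Wnt1, Wnt2, Wnt3, Wnt5a, Wnt6, Wnt7b, Wnt8a, Wnt8b, Wnt9a, Wnt10a, Wnt10b and Wnt16. Of these, Wnt6 had the nearest WT peak, 4725 bp away and assigned to Prkag3, while the nearest to Wnt5a was 87195 bp away, assigned to Erc2, and the nearest to Wnt8a 294785 bp away.

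Fzd8, a Frizzled receptor gene, had the most peaks of all 49 genes, but most of them were far from it. All 8 lay on the lower-coordinate side of the gene on chromosome 18, spread over 492952 bp, and 6 were more than 150000 bp away. The strongest (fold 8.83, -log10 q 28.3, stronger than 95.5% of all WT peaks) was at chr18:9186361-9187011, 26128 bp from the gene. The second in strength (7.27) was 493645 bp away, followed by peaks of 5.72 and 5.71 at 304703 and 172196 bp. Weaker ones lay at 420139 bp (3.93), 315890 bp (3.77) and 340470 bp (3.09). The peak nearest to the gene, 693 bp from its end, was the weakest (2.83). Whether the far peaks act on Fzd8 was not tested, and Fzd8 was the nearest protein-coding gene to each of them, with Gjd4 the next at the strongest (91396 bp).

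The other Frizzled genes had their peaks mostly at the gene itself. Fzd2 had 3, at 6 bp from a gene end (fold 4.31), 996 bp from it (3.25) and 16591 bp outside the gene (4.54). Fzd7, a close relative of Fzd1 and Fzd2, had 1 (3.66) with its summit 72 bp before the gene start, and Fzd1 had 1 (3.07) with its summit 323 bp behind the start. The peak of Fzd6 (2.99) was 556 bp from a gene end. Fzd3, Fzd4, Fzd5, Fzd9 and Fzd10 had none, although a peak assigned to Fbxo16 lay 4074 bp from Fzd3 and one assigned to Baz1b lay 5993 bp from Fzd9. Lrp6, the co-receptor that starts the beta-catenin branch, had 3 peaks inside the gene (4.58, 4.45 and 3.27), and the nearest to Lrp5 was 20233 bp away, assigned to Ppp6r3.

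**Figure D2:**
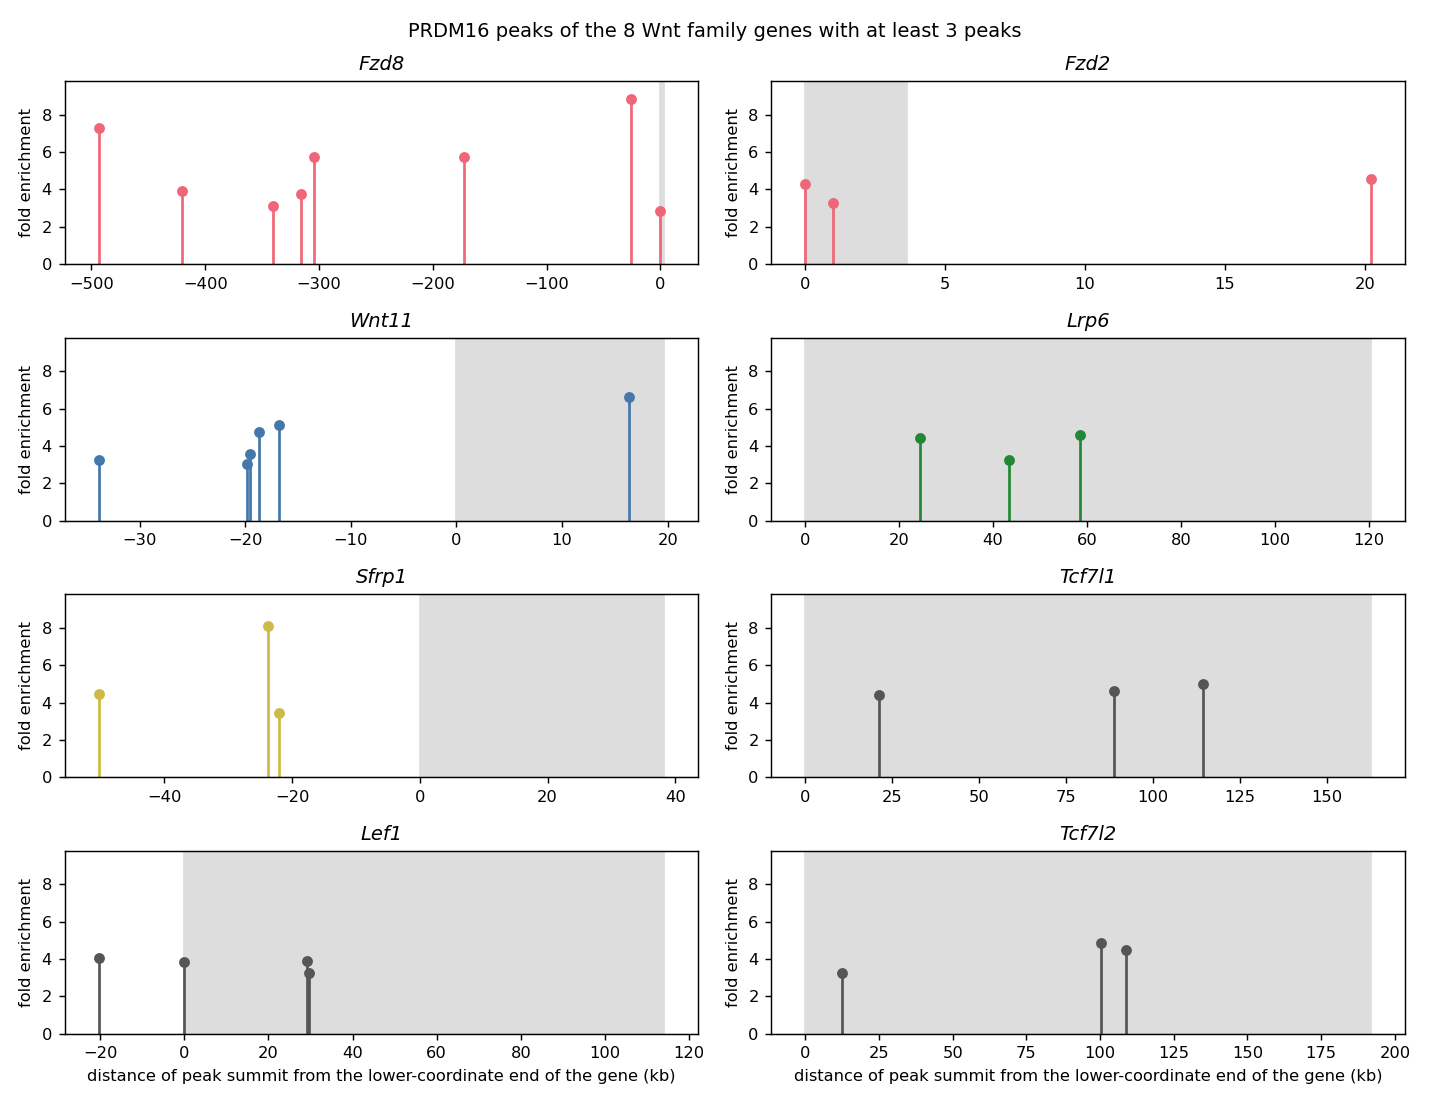
Fold enrichment of each WT peak (points on vertical lines) against the distance of its summit from the lower-coordinate end of the gene in kb, for the 8 genes with at least 3 peaks. Grey marks the gene body. The peaks of Fzd8 reach 493645 bp from the gene, those of Lrp6, Tcf7l1 and Tcf7l2 lie inside the gene, and 4 peaks of Wnt11 stand close together outside it.

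Antagonist genes held the second strongest peak of the set. Sfrp1, which codes for a secreted protein that binds Wnt ligands, had a peak of fold 8.09 (-log10 q 25.3) at chr8:23387420-23388653, 1234 bp wide and 23821 bp from the gene. It gave the most reads of any Wnt gene region, with 89 and 38 in the 2 LV libraries and 69 and 49 in the 2 RV libraries. A weaker peak (3.42) lay 1736 bp from it, and another (4.46) 50267 bp from the gene. Dkk3, a divergent member of the DKK family, had peaks of 6.12 (chr7:112140833-112141191) and 3.99 inside the gene. Dkk2, which binds LRP6, had 1 (4.65) at 63097 bp, and Sfrp5 had 1 (4.01) with its summit 213 bp before the gene start. Sfrp2, Sfrp4, Dkk1 and Dkk4 had none. The peak of Rspo3 (3.30) lay inside the gene, and the nearest peaks to Rspo1 and Rspo2 were 244606 and 252310 bp away, and that to Rspo4 89497 bp.

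Inside the cell, the TCF/LEF genes had peaks of moderate strength spread along long genes. Tcf7l1, mainly a repressor, had 3 peaks inside the gene (4.98, 4.62 and 4.41), and Tcf7l2 had 3 (4.88, 4.51 and 3.27). Lef1 had 4: 1 at the gene start (3.82), 2 inside the gene with summits 567 bp apart (3.88 and 3.24) and 1 at 20330 bp before it (4.08). Tcf7 had 1 (3.05). Axin2, a feedback inhibitor that beta-catenin itself switches on, had a peak inside the gene of fold 2.56, the weakest of all 51, and one 76345 bp away of 4.01. At the weak Axin2 peak the libraries held 5 and 0 reads in LV and 2 and 0 in RV, with no read in LV library B and RV library B.

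Place and strength differed within the set. Of the 51 peaks, 9 (17.6%) lay within 1000 bp of an end of their gene, 22 (43.1%) deeper inside it, 10 (19.6%) outside within 50 kb and 10 (19.6%) further away, beside 16.1%, 48.8%, 19.5% and 15.6% of all WT peaks. The 9 peaks at gene ends had fold enrichments of 2.83 to 4.31. Of the 8 peaks of at least 5-fold, 6 lay outside their gene, at 16782 to 493645 bp, and the other 2 were those inside Wnt11 and Dkk3. Those outside include the Fzd8 peaks of fold 8.83, 7.27, 5.72 and 5.71. Strength by place was not worked out over all WT peaks, so neither pattern can be called particular to the Wnt genes. Among the 26 Wnt genes without a peak, 11 had a WT peak within 50 kb that was nearer to another gene, and 4 (Fzd10, Wnt8a, Rspo2 and Rspo1) had none within 200 kb.

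None of the 51 peaks overlapped a knockout peak: 0 of 51, with an exact 95% binomial upper limit of 6.98%, beside 197 of 17587 WT peaks (1.12%). None lay within 1 kb of a knockout peak, and 0 of the 330 knockout peaks had a Wnt gene as their nearest gene. With 1 knockout library and unknown depth of both lists, this is a description with no test, and the interval covers counting error alone.

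The comparison of LV with RV asked whether PRDM16 binding at the same peaks differs between the ventricles. Whole reads per library were worked out from the deposited LV and RV values. Reads in peaks came to 184244 to 330443 per library, and the libraries are called A and B because their replicate numbers are unknown. The median count at the Wnt gene regions was 7 reads per library, and 22 of 51 regions had a mean of at least 8 reads, which leaves little precision at a single region.

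No Wnt gene region differed between LV and RV past the threshold. With limma on log2(normalized reads + 1), 0 of 51 regions had an adjusted p under 0.05 (the smallest was 0.610), beside 5 of 17587 regions (0.0284%), and 3 of 51 (5.88%) had an unadjusted p under 0.05, beside 6.32% of all regions. Calls over all regions ranged from 0 (without RV library A or B) to 90 (without LV library A), with 22 without LV library B, and 0 Wnt gene regions were called in any of these fits. In the authors' deposited table, 0 of 51 regions had an adjusted p under 0.05, beside 0% of all regions, and 0 of 51 had an unadjusted p under 0.05 (smallest 0.0565), beside 0.483% of all regions. The limma p-values and intervals rest mostly on a spread between pools estimated over all regions together, less on the region's own. That spread may be partly technical, and the test behind the authors' p-values is not stated. With 2 against 2 libraries an exact permutation test cannot go below 0.333, so none was used.

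Sfrp5 had the lowest p of the set. The region before its start (chr19:42202429-42202669) held 10 reads in LV library A, 9 in LV library B, 3 in RV library A and 2 in RV library B; all reads below follow this order. Scaled by the factor of each library, as worked out from the deposited values, these were 7.44 and 13.2 normalized reads in LV and 2.60 and 1.93 in RV. Both LV libraries lay above both RV libraries. The log2 difference of RV over LV was -1.75 (SE 0.598, 95% interval -2.97 to -0.53, limma adjusted p = 0.610), which ranked 178th by p among all regions. Intervals here and below are not adjusted for the number of regions. They overstate the evidence at regions picked for a low p, such as this one and the Dkk3 region below.

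At Wnt11, the peak 18664 bp before the gene held 20 and 11 reads in LV and 9 and 8 in RV (14.9, 16.1, 7.79 and 7.72 normalized reads). The LV libraries were again the higher ones (log2 -0.91, SE 0.417, limma adjusted p = 0.749). Its neighbour 16782 bp before the gene held 27, 17, 26 and 23 reads in LV A, LV B, RV A and RV B (20.1, 24.9, 22.5 and 22.2 normalized reads), with groups that overlapped. The strongest Wnt11 peak, inside the gene, held 44, 15, 25 and 17 (log2 -0.49, SE 0.348, limma adjusted p = 0.863), and there too both LV libraries were the higher ones. That value was -0.21 without LV library A, -0.30 without RV library B and -0.77 without LV library B. At the Wnt11 peak 19832 bp before the gene, both RV libraries were the higher ones. It held 9 and 5 reads in LV and 12 and 10 in RV (log2 0.46, SE 0.468, limma adjusted p = 0.923). The groups overlapped at the peaks 19506 bp (log2 -0.016, SE 0.403) and 33868 bp before the gene (log2 -0.44, SE 0.811).

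At Lrp6, the weakest of the 3 regions held 10 and 7 reads in LV and 5 and 3 in RV (log2 -1.10, SE 0.563, limma adjusted p = 0.790). The strongest held 10 and 5 in LV and 9 and 11 in RV (log2 0.27, SE 0.475, limma adjusted p = 0.966), both RV libraries being higher after scaling, and 0.069 (without RV library B) to 0.47 (without RV library A). The regions of a single gene thus had values on both sides of 0.

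On the RV side, the weaker Dkk3 region (chr7:112149099-112149558) held 10 and 9 reads in LV and 18 and 24 in RV, or 7.44, 13.2, 15.6 and 23.2 normalized reads. Both RV libraries lay above both LV libraries (log2 0.87, SE 0.402, 95% interval 0.052 to 1.69, limma adjusted p = 0.749). The Fzd2 region outside the gene held 19 and 8 reads in LV and 26 and 19 in RV (log2 0.62, SE 0.369, limma adjusted p = 0.818), without overlap of the groups. A Fzd8 region 315890 bp from the gene held 6 and 1 against 11 and 4 (log2 0.96, SE 0.666, limma adjusted p = 0.859), and there the groups overlapped. Leaving out 1 library gave 0.39 (without LV library B), 0.40 (without RV library A), 1.52 (without RV library B) and 1.54 (without LV library A) at this Fzd8 region, and 0.50 (without LV library A) to 1.25 (without LV library B) at Dkk3.

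**Figure D3:**
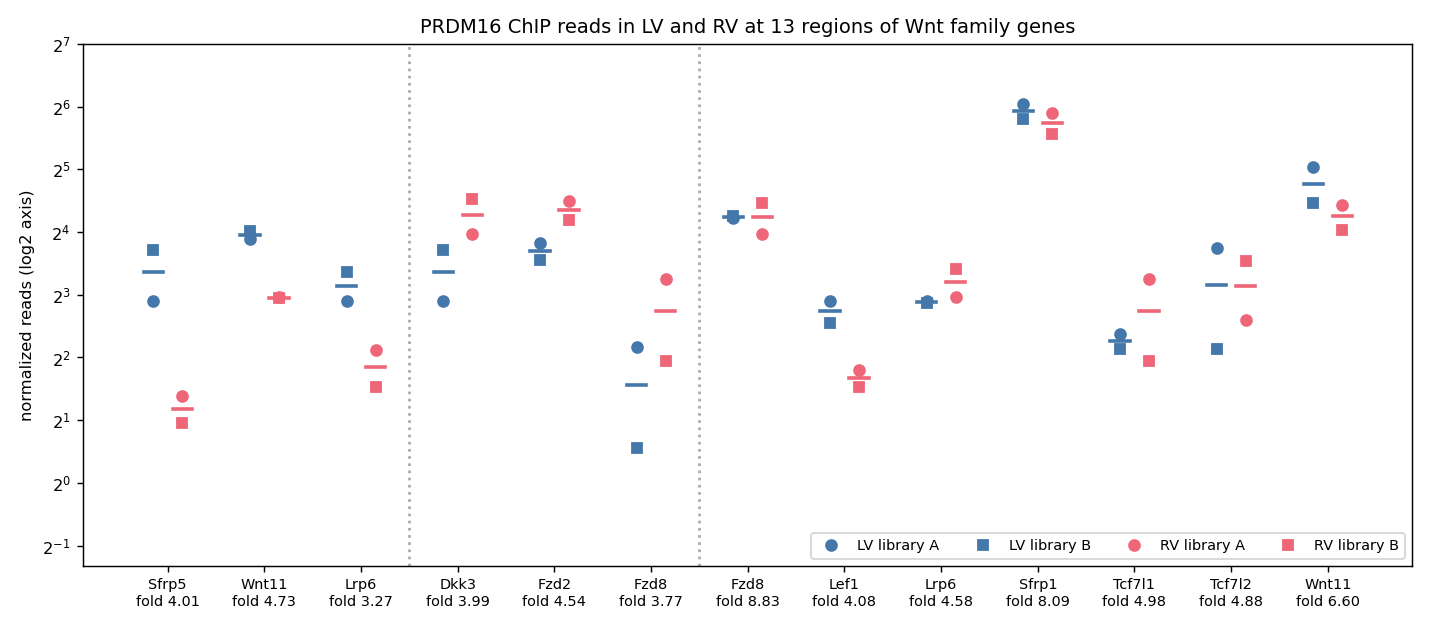
Normalized PRDM16 reads (log2 axis) in the 2 LV libraries and the 2 RV libraries (A as circles, B as squares) at 13 regions, each named by gene and by fold enrichment, with horizontal bars for the mean of each ventricle. Dotted lines separate the 3 regions of smallest p higher in LV, the 3 higher in RV, and the strongest peaks of the 8 genes with at least 3 peaks that are not among them. At Sfrp5 the LV libraries (7.44 and 13.2) lie above the RV libraries (2.60 and 1.93), and at Sfrp1 the ventricles overlap.

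The 4 regions of highest fold enrichment had log2 differences from -0.016 to -0.49, all with intervals that include 0. The Fzd8 region of fold 8.83 held 25 and 13 reads in LV and 18 and 23 in RV (18.6, 19.0, 15.6 and 22.2 normalized reads), a log2 difference of -0.016 with a 95% interval of -0.74 to 0.71, and from -0.26 (without RV library B) to 0.23 (without RV library A). The Sfrp1 region of fold 8.09 had 66.2 and 55.7 normalized reads in LV and 59.8 and 47.3 in RV, a log2 difference of -0.19 with a 95% interval of -0.84 to 0.46, and from -0.36 (without RV library A) to -0.023 (without RV library B). Groups overlapped at both. At the next, the Fzd8 region of fold 7.27, both LV libraries (17.9 and 14.7 normalized reads) lay above both RV libraries (9.53 and 14.5), with a log2 difference of -0.43 (95% interval -1.23 to 0.37). The Wnt11 region of fold 6.60, described above, followed. The median of the 8 regions of at least 5-fold was -0.10. Differences within these intervals were not detectable at this depth.

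The strongest peaks of the TCF/LEF genes held fewer reads. Those of Tcf7l2 were 18 and 3 in LV and 7 and 12 in RV (log2 0.097, SE 0.519), and those of Tcf7l1 were 7 and 3 against 11 and 4 (log2 0.31, SE 0.586), with overlapping groups at both. Without 1 library these values turned sign, to -0.61 at Tcf7l2 (without LV library B), to -0.32 there (without RV library B) and to -0.25 at Tcf7l1 (without RV library A). At the strongest Lef1 region, 20330 bp before the gene, the libraries held 10 and 4 against 4 and 3 (log2 -0.87, SE 0.608, limma adjusted p = 0.861), the LV libraries being higher. The Lef1 region at the gene start held 6 and 4 against 4 and 9, with overlapping groups.

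The Frizzled genes had 6 regions within 1 kb of a gene end. In 3 of them both LV libraries lay above both RV libraries, beside 17.9% of all regions. The limma adjusted p of those 3 was 0.806 (Fzd1), 0.932 (Fzd6) and 0.920 (Fzd8). The Fzd2 region 996 bp from a gene end held 22 and 18 reads in LV and 39 and 9 in RV, and that at 6 bp held 26 and 4 in LV and 17 and 4 in RV. Fzd7 held 10 and 3 in LV and 6 and 10 in RV. At Fzd1 the LV libraries (20 and 11 reads, 14.9 and 16.1 normalized) lay above the RV libraries (13 and 7 reads, 11.3 and 6.75 normalized). They did so too at Fzd6 (8.19 and 5.86 against 4.33 and 4.82 normalized reads) and at the Fzd8 region 693 bp from the gene (11.9 and 8.79 against 8.66 and 5.79). At the Fzd7 region and both of these Fzd2 regions the groups overlapped. Of the other Wnt gene regions within 1 kb of a gene end, Sfrp5 had the LV libraries higher, and the groups overlapped at Lef1 and Wnt2b. The share over all regions near gene ends was not counted, so this is no trait shown for Frizzled genes.

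Across all 51 regions, 29 were higher in LV and 22 in RV, with a median log2 RV over LV of -0.016, beside 8667 and 8919 of all regions with a median of 0.010. With scaling to total reads in peaks, 25 were higher in LV and 26 in RV (median 0.016). The median of the Wnt gene regions was -0.014 at a mean of at least 8 reads, and -0.023 and -0.010 at pseudocounts of 0.1 and 5. It was further on the LV side without 1 library, at -0.15 (without LV library A), -0.075 (without LV library B), -0.099 (without RV library A) and -0.12 (without RV library B). The median of all regions stayed between -0.020 and 0.042 in these fits. With the strongest region of each Wnt gene the median was -0.16, a choice not made for all regions. The ligand regions (9 of 13 higher in LV, median -0.16) and the TCF/LEF regions (5 of 11 higher in LV, median 0.097) had values from -0.98 to 0.93 between them. Both LV libraries lay above both RV libraries in 14 of 51 regions (27.5%), beside 17.9% of all regions, and both RV libraries lay above both LV libraries in 4 (7.84%), beside 17.6%. Those 4 were regions of Dkk3, Fzd2, Wnt11 and Lrp6. A list is described here and was not tested.

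**Figure D4:**
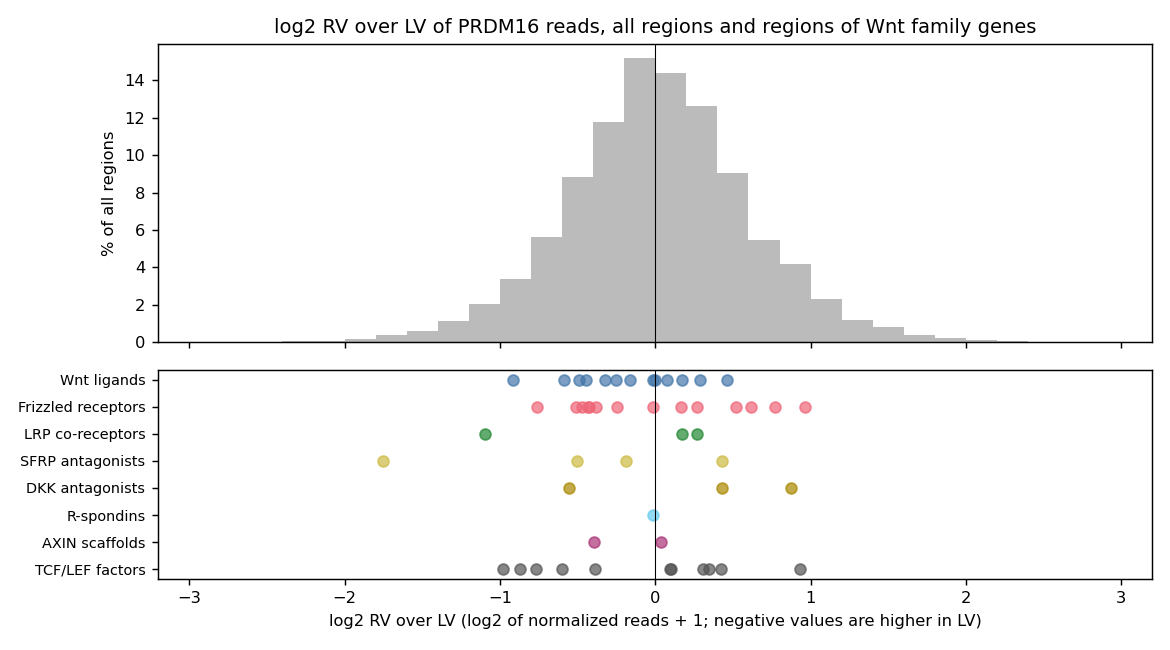
Histogram of log2 RV over LV (log2 of normalized reads plus 1) over all 17587 regions (upper panel, bars, percent of regions) and the value of each of the 51 Wnt gene regions by family (lower panel, points). The Wnt gene values run from -1.75 at Sfrp5 to 0.96 at Fzd8, within the spread of all regions.

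Other genes of the pathway held some stronger peaks, although their median fold enrichment was 3.96. Of a list of 54 genes that release, receive, relay or limit the Wnt signal, 36 had a WT peak (66.7%, beside 32.9% of all genes), with 147 peaks in all, of which 2 overlapped a knockout peak, beside 1.12% of all WT peaks. Neither the share of 66.7% nor the next was compared at like length of surrounding sequence. Of all genes in the set with the longest such sequence, 56.4% had a peak. A peak of at least 5-fold belonged to 20 of the 54 (37.0%), beside 13.49% of all genes. The strongest lay inside Lgr4 (fold 16.3), a receptor of R-spondins, Daam1 (13.7), a formin of the polarity branch, and Tle3 (12.2), a corepressor that binds TCF factors. They were followed by a peak 53183 bp from Wif1 (11.2), a secreted Wnt inhibitor, and peaks inside Lgr6 (10.4), another R-spondin receptor, and Ror1 (10.1), a receptor of WNT5A. Daam1 had the most peaks (16), followed by Prickle1 (11) and Ror1 (10), then Vangl1 and Tle4 (8 each), of which Prickle1 and Vangl1 are genes of planar cell polarity. Celsr1, another such gene, and Tle3 had 7 each. Ctnnb1, which codes for beta-catenin, had 2 peaks, the stronger of fold 4.17 and 66530 bp from the gene. Porcn, which attaches the lipid to Wnt ligands, and Dvl1, Dvl2 and Dvl3, which relay the signal from Frizzled, had none. Of these 147 regions, 0 passed in LV against RV in either direction with limma when no library was left out. In that fit 7 had an unadjusted limma p under 0.05, beside 6.32% of all regions, and 68 were higher in LV and 79 in RV. The median log2 of these regions was 0.028, beside 0.010 of all regions. Leaving out 1 library gave medians from -0.056 (without LV library A) to 0.079 (without RV library B).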

How the data were processed

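The 51 regions come from 3 deposited files of a series of 14 samples. Per the submitters' processing notes, tools included DESeq2, HOMER, MACS2 (version 2.1.1.20160309) and BWA (version 0.7.12-r1039), with mm10 and GRCm38 as builds. Roles, filters and pooling of replicates are not stated there. The deposited peak lists hold a score, a ratio of ChIP to background (fold enrichment), -log10 p and -log10 q, as the authors' peak caller gave them. The authors' table of LV and RV holds a normalized signal, a log2 ratio, and p-values before and after adjustment, whose test is not stated.

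Overlaps used bedtools 2.31.1 (at least 1 bp). Genes and promoter sequences are RefSeq tables of GRCm38.p6; a summit inside more than 1 gene (178 peaks, none of a Wnt gene) counted for each. Each deposited LV and RV signal minus 0.5 had exactly 1 solution in whole reads of 2 libraries (100% of regions, tolerance 1e-07). limma 3.58.1 in R 4.3.3 was run over all 17587 regions with a mean-variance trend, no replicate block and no minimum of reads, with Benjamini-Hochberg adjustment and a threshold of 0.05; the threshold for the authors' adjusted p was the same. Both the recovery and limma were tested on simulated data. Other steps ran in Python 3.11.15 (scipy 1.17.1, matplotlib 3.10.9, pandas 2.3.3, numpy 2.4.6).

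The rule named the strongest peak of each gene, all peaks of the 5 genes with most peaks (8 with ties), peaks within 1 kb of a gene end and, for LV above RV and RV above LV, the 3 regions of lowest p. By that rule, LV and RV log2 values are given for the latter and the strongest peak of each gene with at least 3 peaks, 13 regions in all. Pathway genes are named as the 6 with the strongest and the 6 with most peaks (ties in number kept, Celsr1 and Tle3). Ctnnb1, Porcn and the Dvl genes, and reads and log2 values at further regions, were chosen after their values were seen. The families, lists and tests were chosen with earlier results of these data known; within the families, genes were taken by symbol alone.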

Additional observations from a re-analysis of the deposited data

How the results depend on the processing

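The count of 23 Wnt genes with a peak stayed within 1.5 times under the other assignments of peaks to genes, but fell to 14 (28.6%, beside 26.1% of all genes) when a -log10 q of 5 or more was required, and to 4 (8.16%, beside 13.49%) when 5-fold or more was. The 51 peaks became 31 with genes within 10 kb alone, 31 with the q limit and 8 with the fold limit. The 36 other pathway genes with a peak became 20 (37.0%, beside 13.49% of all genes) with the fold limit, a setting added for that list after seeing the data. Fewer peaks enter under each of these settings. Overlap with knockout peaks stayed at 0 under both other definitions. In LV against RV, 0 Wnt gene regions passed under all 10 alternatives, while calls over all regions (5) were 1 at a pseudocount of 0.1, 14 at 5, 8 at a mean of at least 8 reads, 0 without the trend, 0 in the authors' deposited table, and 0 to 90 without 1 library (90 without LV library A, 22 without LV library B, 0 without RV library A or B); the cause was not tested. The median log2 of Wnt gene regions (-0.016; the 4 pairs of 1 LV and 1 RV library gave -0.17 to -0.071, SD 0.045) was -0.15, -0.075, -0.099 and -0.12 without LV library A, LV library B, RV library A and RV library B, -0.10 at the 8 regions of at least 5-fold, -0.16 with 1 region per gene and 0.016 with scaling to total reads in peaks, which turned its sign and left 25 regions higher in LV and 26 in RV; that scaling moved the median of all regions to 0.04. The median of the Wnt gene regions was -0.014 at a mean of at least 8 reads, and -0.023 and -0.010 at pseudocounts of 0.1 and 5. Of the 13 regions whose log2 values are given by the rule, 10 kept their sign under all settings. The strongest Fzd8 region was 0.019 with scaling to total reads and -0.26 to 0.23 without 1 library (0.00026 without LV library B), that of Tcf7l1 -0.25 to 0.86, and that of Tcf7l2 -0.61 to 0.80 (-0.32 without RV library B). The adjusted p of these 13 regions was at least 0.216 throughout. A leave-one-out fit leaves 1 library in a ventricle, which is then assumed to vary like the others. No paired analysis was possible because the libraries worked out from the LV and RV means cannot be tied to the replicate numbers of the labels. Few reads per region limit LV against RV, and the depth behind the peak lists is unknown.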
